A study of Mus musculus with 221 samples.

Results

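Odf2 and 7 genes of centriole assembly and the spindle pole were followed in single early 2-cell mouse embryos. The 8 genes were chosen by 2 routes. Odf2 was selected on its lower level in embryos of high-fat-diet fathers, in the same embryos described here, and Plk4, Sass6, Cenpj, Cep152, Cep192, Pcnt and Cdk5rap2 were named by their function. They are 8 of 55291 genes in the count table, and all 8 were among the 14820 genes that passed the filter on low counts. Embryos came from in vitro fertilization with thawed sperm of C57BL/6N sires that had received, for a short time before sperm collection, a high-fat (HFD) or a low-fat diet (LFD). There were 99 LFD embryos and more HFD embryos, whose number is given with the processing. All oocytes came from unexposed, superovulated C57BL/6N dams with mitochondrial DNA of the Staudach (ST) line, so embryos of both groups share this maternal background. Each library was 1 whole embryo, made with the Smart-seq2 protocol, which copies and amplifies polyadenylated RNA. Only a few males per diet gave sperm, and the labels name neither the male, the date nor the sex of an embryo. P-values therefore treat embryos as independent, and a difference between diets cannot be told apart from a difference between these males.

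Centrioles are barrels of microtubules that organize the centrosome and the base of cilia. Plk4 is the kinase that starts centriole duplication, Sass6 forms the cartwheel on which a new centriole is built, Cenpj (also called CPAP) lengthens it, and Cep152 and Cep192 recruit Plk4. Pcnt and Cdk5rap2 are scaffolds of the pericentriolar material, which holds gamma-tubulin and nucleates microtubules. Odf2 encodes a protein of the outer dense fibres of the sperm tail, and its other isoform, cenexin, sits on the appendages of the mother centriole. Mammalian oocytes lack centrioles. In the mouse, unlike in most mammals, the sperm centrioles degenerate as well, and the first cleavages run on spindles without centrioles until centrioles form de novo. The RNAs of this pathway are thus measured at a stage that lacks the structure which they build elsewhere. Counts per gene do not separate the isoforms of Odf2.

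The bases before the start sites of Odf2, Plk4 and Cep152 are shown because Odf2 and Plk4 were the most abundant pair of the 8 genes and varied together between embryos, whereas Cep152 was the least abundant. Sequences are from RefSeq (GRCm38.p6), 5′ to 3′ on the strand of the gene. Capitals mark the CCAAT box (CCAAT, or ATTGG for the other strand), the motif that factor NF-Y binds, and the cell-cycle genes homology region (TTTGAA, or TTCAAA for the other strand), a motif of genes with a peak at mitosis. Windows of 250 bases before a start site were found for 7 of the 8 genes, and Odf2 has 4 start sites. The 250-base Odf2 window shown is the one that holds no exon in the count table.
Odf2, chr2:29889470-29889719, plus strand: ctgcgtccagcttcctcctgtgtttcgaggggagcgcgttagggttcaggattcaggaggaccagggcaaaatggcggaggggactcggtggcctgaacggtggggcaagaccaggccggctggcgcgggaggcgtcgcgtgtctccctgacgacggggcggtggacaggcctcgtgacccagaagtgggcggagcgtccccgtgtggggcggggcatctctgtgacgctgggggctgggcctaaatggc
Odf2, chr2:29889740-29889766, plus strand, from the next start site: gggggTTTGAActggCCAATgggcgag
Plk4, chr3:40799701-40799950, plus strand: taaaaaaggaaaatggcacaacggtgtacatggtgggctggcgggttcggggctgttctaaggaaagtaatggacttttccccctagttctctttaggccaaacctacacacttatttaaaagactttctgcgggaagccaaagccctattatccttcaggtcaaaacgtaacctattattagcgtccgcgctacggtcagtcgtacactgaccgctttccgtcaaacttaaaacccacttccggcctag
Cep152, chr2:125625114-125625363, minus strand: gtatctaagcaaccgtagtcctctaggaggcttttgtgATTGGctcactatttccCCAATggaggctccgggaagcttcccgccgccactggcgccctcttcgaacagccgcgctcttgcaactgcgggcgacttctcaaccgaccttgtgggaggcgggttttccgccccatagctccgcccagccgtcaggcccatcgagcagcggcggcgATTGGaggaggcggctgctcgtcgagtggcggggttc
The Odf2 window shown held neither motif. Of the 4 Odf2 windows 2 held both, among them the one nearest the start of the longest coding transcript, and share the shorter stretch. There the motifs lie 4 bases apart, and the stretch lies in an exon of some Odf2 transcripts. The Plk4 window held neither, and that of Cep152 held 3 CCAAT boxes. Of all 32851 windows of this length, 33.8% held a CCAAT box, 15.99% the homology region and 5.55% both. The Odf2 window shown held 22 CG pairs and the other Odf2 windows 27 to 35, that of Plk4 13 and that of Cep152 23, against a median of 6 over all windows.

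Odf2 lies on chromosome 2 (29889221 to 29931746, plus strand, GRCm38 as in the count table) and Cep152 on the same chromosome (125563088 to 125625113, minus strand). Plk4 and Sass6 lie on chromosome 3 (40800019 to 40816883 and 116594982 to 116631004, both plus strand). Pcnt lies on chromosome 10 (76351263 to 76442786, minus strand), Cdk5rap2 on chromosome 4 (70216856 to 70410443, minus strand), Cenpj on chromosome 14 (56526761 to 56575425, minus strand) and Cep192 on chromosome 18 (67800107 to 67885170, plus strand). Exons of 4 of the 8 genes share bases with exons of another gene. Odf2 shares 97 bases, or 0.978% of its exon bases, with Gm23865 on the opposite strand, which had a mean of 189 counts and r = 0.55 with Odf2. Sass6 shares 1502 bases (24.5%) with Gm42893 and 389 (6.36%) with Trmt13, both on the opposite strand, and Trmt13 had r = 0.50 with Sass6. Pcnt shares 379 bases with 1700094J05Rik on the opposite strand, with which it had r = 0.66, and 0.946% of its exon bases with AC141477.1 on its own strand, and Cdk5rap2 shares 365 with Ywhaq-ps3 on its own strand. Smart-seq2 does not keep the strand of the RNA, so reads in these stretches cannot be assigned to 1 gene of the pair, and Sass6 shares the largest part of its exon bases among the 8.

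The libraries held 1937251 to 17246791 counts (median 5706066) and 11364 to 21638 genes with a count. The label of an early 2-cell embryo was met: none of the 14 maternal and of the 15 measured 2-cell-stage transcripts was at 0 in most embryos. The summed level of the 2-cell-stage list lay between 9.58 and 12.20 log2 CPM (CPM are counts in each 1000000) in HFD and between 10.34 and 12.18 in LFD embryos. Of 14 macrophage markers 7 were tested and 5 were past the threshold as higher in HFD. Their summed level had a median of 6.27 in HFD and 6.28 in LFD embryos, but reached 12.60 in HFD against 7.29 in LFD, while C1qa, C1qc, Adgre1, Tyrobp, Fcer1g and Ptprc were at 0 in most embryos. With this level as a covariate the log2 fold change of Odf2 was -0.10 (adjusted p = 0.344, edgeR). Of 13 cumulus and granulosa cell markers 10 were at 0 in most embryos, and their summed level had a median of 4.18 and a highest value of 7.57 in HFD embryos, beside 3.96 and 5.92 in LFD embryos. The share of counts in mitochondrially encoded genes was 5.80% ± 2.23 (SD) in HFD and 4.48% ± 1.66 (n = 99) in LFD embryos.

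Odf2 was abundant and was lower in HFD embryos by a small amount. Its level, as log2(CPM + 1), was lowest at 6.09, median 8.78 and highest at 9.47 in HFD embryos. In LFD embryos the lowest, median and highest levels were 6.20, 8.95 and 9.49. The means were 8.72 ± 0.42 (SD) and 8.88 ± 0.39 (n = 99), so the groups overlapped over nearly their whole range, and 90 of the HFD embryos (73.8%) lay below the LFD median. In the edgeR fit over all genes the log2 fold change (HFD over LFD) was -0.12 (SE 0.05), or 7.87% lower counts, with p = 0.0152 and an adjusted p of 0.217. Each value is that of a whole embryo, so less RNA in both cells and less in 1 of them cannot be told apart. Since Odf2 was selected on this contrast, these values describe the choice and are no test of it. The adjusted p was above the threshold of 0.05 in this fit and in each of 15 alternative fits, whose lowest was 0.0750, so the lower level that the choice rests on was not past a threshold adjusted over all genes. By p, Odf2 ranked 1037 of 14820 genes. The whole fit called 318 genes (2.15%), 186 of them higher (1.26%) and 132 lower (0.891%) in HFD, and the median log2 fold change of all genes was 0.01.

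**Figure D1:**
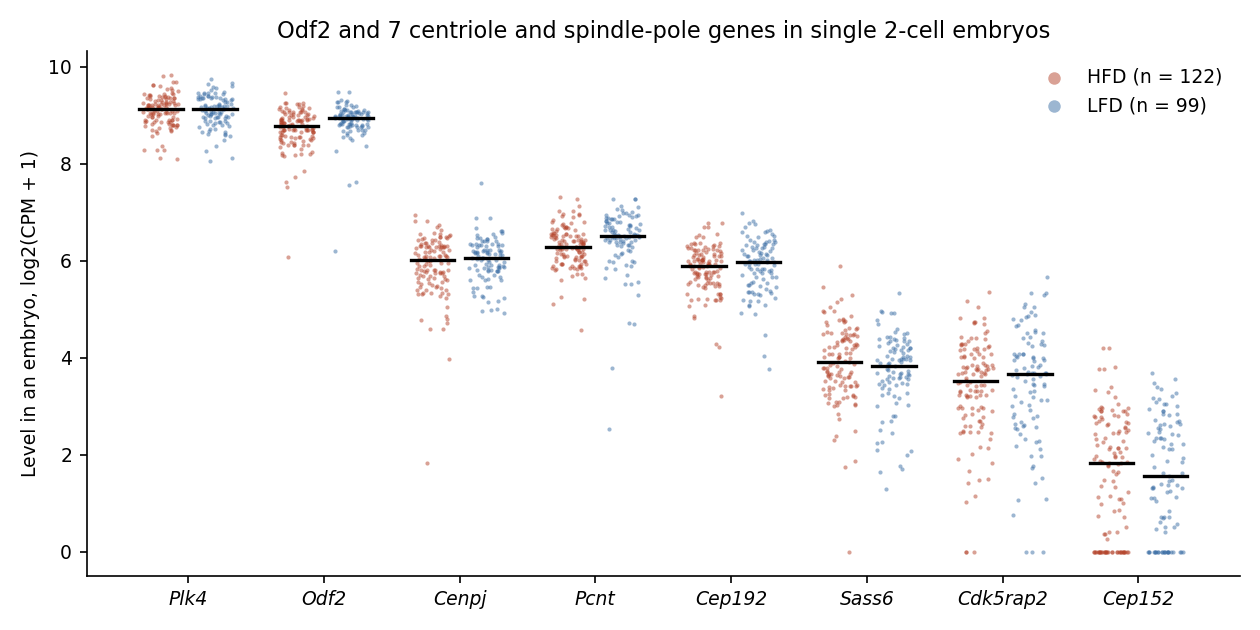
Level of each of the 8 genes in every embryo, as log2(CPM + 1), with HFD embryos in red and LFD embryos (n = 99) in blue; black bars are medians and genes are ordered by median counts per kilobase of exon. Odf2 medians are 8.78 in HFD and 8.95 in LFD, the points of both groups overlap for all 8 genes, and many embryos of either diet lie at 0 for Cep152.

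The lower Odf2 level was uneven along the embryo numbers in the sample titles. Numbers were divided into ranges of 10, which are not a batch named in the labels, and 11 ranges held both diets. HFD embryos had the lower mean Odf2 level in 8 of the 11, with differences from -0.57 to 0.24 log2. The HFD means in the ranges 31 to 40, 41 to 50, 51 to 60 and 61 to 70 were 8.63, 8.39, 8.55 and 8.50, against LFD means of 8.99, 8.96, 8.84 and 9.07. These 4 ranges hold 4 of the 5 largest HFD deficits, the other being the last range with both diets, which has 4 LFD embryos. In the ranges 1 to 10, 11 to 20 and 21 to 30 the HFD means were 8.77, 8.65 and 8.56, against LFD means of 8.93, 8.89 and 8.52. The HFD mean of 21 to 30 thus lay below that of 31 to 40. From number 71 on, HFD range means lay between 8.85 and 8.95.

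The 38 HFD embryos numbered 31 to 70 had a mean Odf2 level of 8.51 ± 0.34, the other 84 HFD embryos 8.81 ± 0.42 and LFD embryos 8.88. The first of these lay 0.37 log2 below LFD and the second 0.07 below. Without the 38 embryos the log2 fold change of Odf2 was -0.02 (SE 0.05, adjusted p = 0.974, edgeR). The labels name no such group, and the run stood apart in these same data, so this fit is a description and no test. The run differed in other respects: the median number of genes with a count was 17613, against 19309.5 in the other HFD embryos, and mitochondrial genes took 6.52% ± 2.45 of the counts, against 5.47% ± 2.06. The median total was 5127570 counts in the run and 5831590 in the other HFD embryos. The log2 ratio of summed 2-cell-stage to maternal transcripts was -1.31 ± 0.53 in the run. That ratio was -1.66 ± 0.47 in the other HFD embryos and -1.63 ± 0.39 in LFD embryos. Whether handling, date or male set this run apart was not tested, since the labels give none of them.

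**Figure D2:**
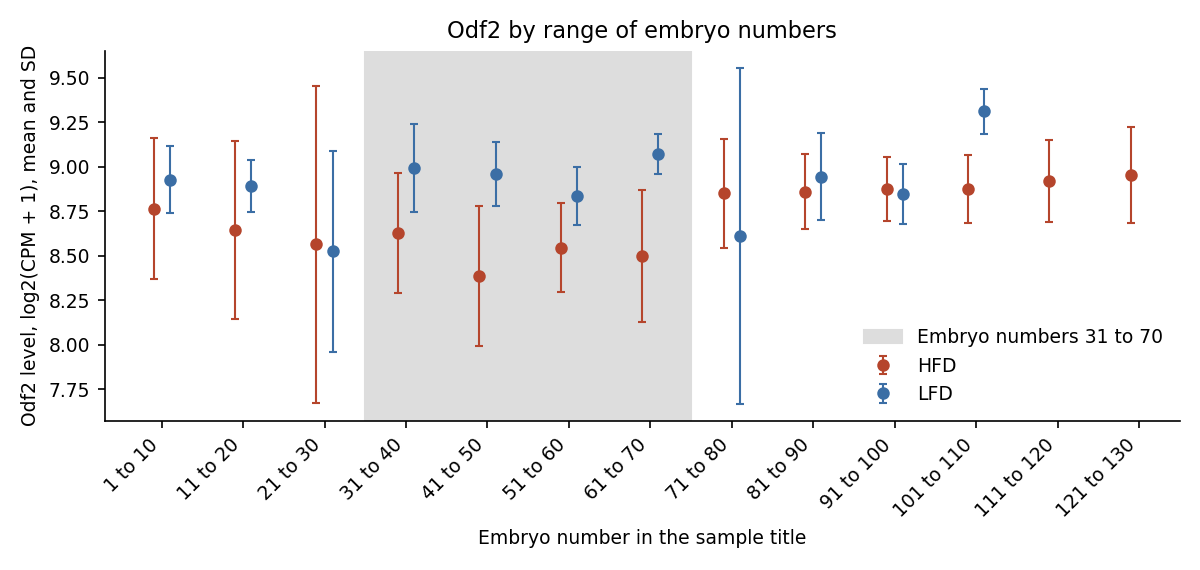
Odf2 level, log2(CPM + 1), as mean and SD over the embryos in each range of 10 embryo numbers, with HFD in red and LFD in blue and the numbers 31 to 70 shaded. HFD means in the shaded ranges are 8.39 to 8.63 and LFD means there 8.84 to 9.07; the highest 2 ranges hold HFD embryos alone.

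Of the 7 companions, 0 passed the threshold, 4 had a lower and 3 a higher estimate in HFD, and their median log2 fold change was -0.05. Sass6 and Pcnt had an unadjusted p under 0.05, as had 1938 of all 14820 genes tested. DESeq2 and limma called 0 of the 7 as well. Beside the background of 2.15% of all genes, this count sets the companions apart in neither direction.

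Plk4, the kinase at the head of the pathway, had the highest level of the 8 genes and the smallest SE. Its lowest, median and highest levels were 8.11, 9.14 and 9.84 in HFD and 8.05, 9.14 and 9.75 in LFD embryos. The 2 medians coincided and the groups overlapped over their whole range. The log2 fold change was 0.05 (SE 0.05), with a 95% interval from -0.04 to 0.14. The Odf2 estimate lies outside this interval, but the interval of Odf2, from -0.21 to -0.02, overlaps it. Both intervals treat embryos as independent, and the difference between the 2 genes was not tested.

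Among the genes that build or lengthen the centriole, the level of Sass6 ran from 0 (lowest) over 3.91 (median) to 5.90 (highest) in HFD and from 1.30 over 3.84 to 5.33 in LFD embryos. It was at 0 in 1 HFD embryo, and the groups overlapped. Its log2 fold change of 0.24 (SE 0.11) had p = 0.0296 and an adjusted p of 0.303 (edgeR), and HFD embryos were lower in 3 of 11 number ranges. Cenpj ran from 1.84 over 6.01 to 6.95 in HFD and from 4.93 over 6.05 to 7.60 in LFD embryos. Its log2 fold change was -0.05 (SE 0.07), with an interval from -0.19 to 0.09, and the sign turned to 0.01 without HFD embryos 31 to 70.

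The pair that recruits Plk4 differed widely in level. Cep192 ran from 3.21 over 5.90 to 6.79 in HFD and from 3.78 over 5.98 to 6.99 in LFD embryos, with a log2 fold change of -0.05 (SE 0.07). Cep152 was the least detected of the 8: it had no count in 33 HFD embryos (27.05%) and in 23 of 99 LFD embryos (23.2%). Its medians were 1.83 and 1.57 and its highest levels 4.21 and 3.69. The log2 fold change of 0.12 had an SE of 0.29 and an interval from -0.44 to 0.68, and its sign turned in limma (-0.08), so no direction could be given at this depth.

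Of the scaffolds of the pericentriolar material, Pcnt ran from 4.58 over 6.29 to 7.32 in HFD and from 2.54 over 6.51 to 7.28 in LFD embryos, and 87 HFD embryos (71.3%) lay below the LFD median. The log2 fold change was -0.13 (SE 0.07, p = 0.0454, adjusted p = 0.369, edgeR), close in size to that of Odf2 in the same fit. In limma without a block Pcnt had -0.08 (adjusted p = 0.643) and Odf2 -0.13. Without HFD embryos 31 to 70 Pcnt had -0.05 (adjusted p = 0.908, edgeR). The mean of Pcnt lay 0.29 log2 below the LFD mean in HFD embryos 31 to 70 and 0.04 below in the other HFD embryos. As for Odf2, the run had a lower mean than the other HFD embryos also for Cdk5rap2 (-0.29 and 0.04 against LFD). The same held for Cep152 (-0.24 and 0.11) and Cenpj (-0.20 and -0.08). For Plk4 (-0.02 and 0.03) and Sass6 (0.13 and 0.22) the run mean was lower by less. For Cep192 it was higher (0.004 and -0.087). The median of Sass6 was higher in the run, at 4.05 against 3.87 in the other HFD embryos. The median of Cdk5rap2 was not lower, at 3.58 in the run and 3.52 in the other HFD embryos, with 3 and 0 embryos at 0. Cep152 was at 0 in 14 of the run (36.8%) and in 19 of the other HFD embryos (22.6%). Cdk5rap2 ran from 0 over 3.52 to 5.36 in HFD and from 0 over 3.66 to 5.66 in LFD embryos, with 3 embryos of each diet at 0. Its log2 fold change was -0.16 (SE 0.16) and turned to 0.03 in limma.

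The levels of the 8 genes were ordered per kilobase of exon, the scale on which genes can be compared. Plk4 had a median of 82.1 CPM per kilobase over all embryos, Odf2 47.7, Cenpj 13.3, Pcnt 6.94, Cep192 4.82, Sass6 2.25, Cdk5rap2 0.866 and Cep152 0.419. The highest median was 196 times the lowest. By mean CPM per kilobase, Plk4 stood above 96.02% and Odf2 above 92.2% of all genes tested, whereas Cdk5rap2 stood above 14.1% and Cep152 above 6.10%. Plk4 was above Odf2 in 99.5% of embryos and Odf2 above Cenpj in 99.1%. Neighbours whose log2 ratio within an embryo was smaller than its SD were Pcnt and Cep192 (0.54 ± 0.69, SD over all embryos) and Cdk5rap2 and Cep152 (0.58 ± 1.63 over the 164 embryos with both), so these pairs were not separated beyond their spread. The union of exons of Odf2 spans 9919 bases against 3959 in its longest coding transcript, and on the latter length the order of the 8 genes was the same, with Odf2 at 119.4 CPM per kilobase and Plk4 at 162. On that length Cenpj and Pcnt, and Cep192 and Sass6, were not separated beyond their spread either.

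Between embryos Odf2 varied together with Plk4, Pcnt and Cenpj. Correlations were computed over all embryos of both diets with the mean of each diet removed, with permutation within diets, and p-values were adjusted over all 28 pairs. Odf2 and Plk4 had Pearson's r = 0.52 and Spearman's rho = 0.43 (adjusted permutation p = 0.00014 for both). Within groups r was 0.53 (HFD) and 0.50 (LFD), and over all it was 0.45 without the 2 embryos farthest from the Odf2 median. Odf2 and Cenpj had r = 0.39 and rho = 0.38 (adjusted permutation p = 0.00014 for both), with 0.34 without those 2 embryos, but r was 0.098 in HFD embryos 31 to 70 and 0.51 in the other HFD embryos. Odf2 and Pcnt had r = 0.42 and rho = 0.21 (adjusted permutation p = 0.00014 and 0.00997), with 0.32 in HFD and 0.53 in LFD embryos, and with 0.42 in HFD embryos 31 to 70 and 0.18 in the other HFD embryos. For Odf2 and Plk4 these values were 0.52 and 0.56.

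With the remaining companions the relation was weak or rested on few embryos. For Odf2 and Cep192 r was 0.23 (adjusted permutation p = 0.00472) but rho was 0.00 (adjusted p = 0.969) and r was 0.05 without the 2 farthest embryos, so it rested on those. Odf2 with Sass6 had r = -0.02, with Cdk5rap2 0.06 and with Cep152 0.13, none past the threshold, and Cep152 and Cdk5rap2 were sparse. Over all 28 pairs, 9 had a positive r past the threshold and 0 a negative one, and 6 pairs passed in both r and rho. The permutations compare each pair with no relation at all, and pairs of other genes were not counted in the same way. The median r of Odf2 with 9221 other genes, described below, was itself 0.12. Whether these pairs vary together more often than pairs of other genes was therefore not tested.

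**Figure D3:**
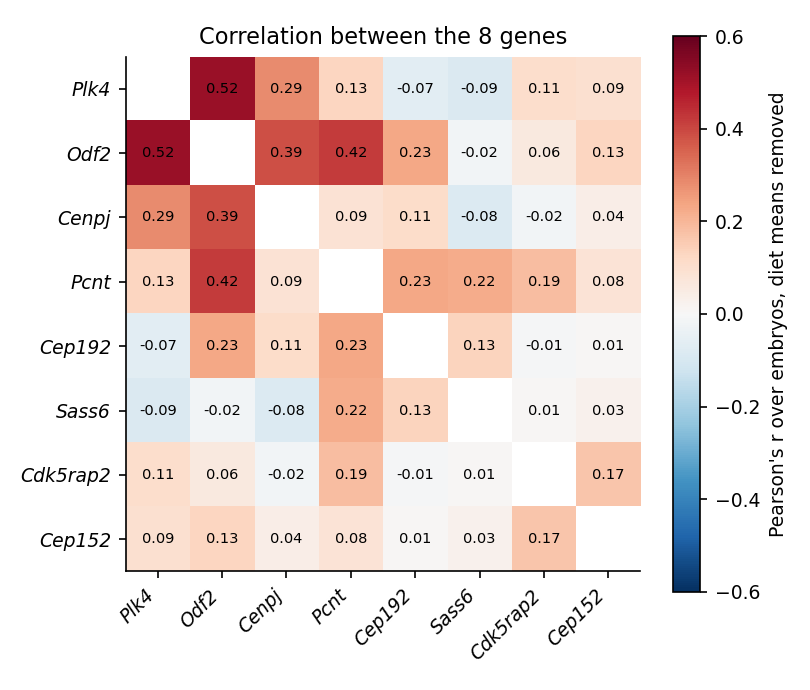
Pearson's r between the log2(CPM + 1) levels of each pair of the 8 genes over all embryos, with the mean of each diet removed; red is positive and blue negative. The Odf2 row holds the highest values, 0.52 with Plk4, 0.42 with Pcnt and 0.39 with Cenpj.

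The share of counts in mitochondrial genes moved with Odf2, Plk4, Cenpj and Cep152. Odf2 had r = -0.68 and rho = -0.43 with that share (adjusted permutation p = 4e-05 and 8e-05, over 16 relations). Within groups r was -0.72 (HFD), -0.63 (LFD), -0.70 in HFD embryos 31 to 70 and -0.72 in the other HFD embryos. Without the 2 embryos with the most extreme shares r was -0.58, and with counts of nuclear genes alone as the denominator it was -0.64. The 2 embryos with the lowest Odf2 levels, 6.09 (HFD embryo 28) and 6.20 (LFD embryo 73), had 19.4% and 11.5% mitochondrial counts. Plk4 had r = -0.48 and rho = -0.36, Cenpj r = -0.34 and rho = -0.29, and Cep152 r = -0.23 and rho = -0.21, all past the threshold. For Pcnt and Cep192 r was -0.19 and -0.15 (adjusted permutation p = 0.00637 and 0.0421), but rho was -0.03 and 0.03, not past the threshold, and for Cep192 r was -0.03 without the 2 embryos. Cdk5rap2 (r = -0.10) and Sass6 (r = 0.00) were not past the threshold in either measure.

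With the mitochondrial share as a covariate, an alternative chosen after the data were seen, the log2 fold change of Odf2 was 0.02 (SE 0.04, adjusted p = 0.960, edgeR), so its sign turned. The share was itself higher in HFD embryos and is a subject of the study, and its part in the Odf2 difference was not tested. The number of genes with a count also moved with Odf2 (r = 0.37, rho = 0.27, adjusted permutation p = 4e-05 and 0.000416), with Pcnt (r = 0.50, rho = 0.28, adjusted permutation p = 4e-05 and 0.000107) and with Cep152 (r = 0.19, rho = 0.17, adjusted permutation p = 0.00636 and 0.0268). For Odf2 this r was 0.57 in HFD embryos 31 to 70 and 0.18 in the other HFD embryos. For Pcnt it was 0.40 and 0.15, and the r of Pcnt with the mitochondrial share was -0.39 and -0.05.

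**Figure D4:**
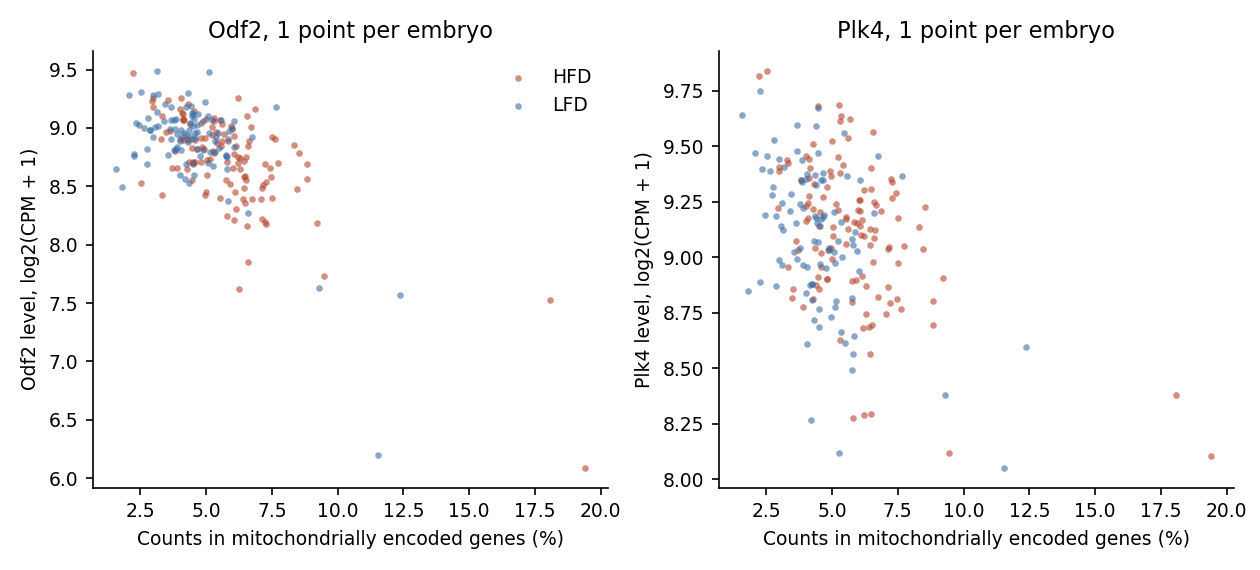
Level of Odf2 (left) and Plk4 (right), log2(CPM + 1), against the percent of counts in mitochondrially encoded genes, with 1 point per embryo, HFD in red and LFD in blue. The embryos above 10% mitochondrial counts lie low for both genes, and within the rest the points of both diets slope down, with r = -0.68 for Odf2 and -0.48 for Plk4 over all embryos with diet means removed.

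The genes most like Odf2 were sought among 9221 others whose mean level was 3 log2 CPM or more, over the same embryos with diet means removed. The highest r values were 0.80 for Ube4bos1, 0.79 for Ppp6r3, 0.77 for Carmil1, 0.77 for Mapk6 and 0.77 for Pan2. Ube4bos1 is a transcript opposite Ube4b, Ppp6r3 a regulatory subunit of protein phosphatase 6, Carmil1 a regulator of actin capping, Mapk6 an atypical MAP kinase and Pan2 a subunit of a deadenylase. The lowest values were -0.61 for Omt2b, -0.59 for Omt2a and -0.59 for Cenpx, of which Omt2a and Omt2b are transcripts of oocyte maturation and Cenpx encodes a centromere protein. The median over all genes was 0.12. Of the companions Plk4 ranked 271, Pcnt 748 and Cenpj 988 from the top. All pairs share the same libraries, and these genes were picked for their r with Odf2, which itself had r = -0.68 with the mitochondrial share. The 5 genes most like Odf2 had r from -0.69 to -0.51 with that share, and the 3 least like it 0.43 to 0.64; the part of the share in the likeness was not tested. Across genes, r with Odf2 had a Spearman's rho of 0.27 with exon length, and the median exon length was 6373 bases in the 100 genes with the highest r, 2152.5 in the 100 with the lowest and 4345 in all.

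In 4 lists of related genes all but 2 genes were tested and 4 passed the threshold, 2 higher and 2 lower in HFD. That is 3.60% of those tested, beside 2.15% of all genes, and their median log2 fold change was 0.00. Of 32 tested centriole assembly genes 0 were called and 5 had an unadjusted p under 0.05, beside 1938 of all 14820 genes tested. That count was 4 of 24 for the appendages and linker and 6 of 26 for the pericentriolar material. For the spindle pole list it was 10 of 29, and no list was tested as a set. Among the centriole assembly genes the smallest p belonged to Cep97, whose protein caps growing centrioles with CCP110. Cep97 had a log2 fold change of 0.35 (SE 0.13, adjusted p = 0.148, edgeR). Among 24 genes of the appendages and the linker, where the cenexin product of Odf2 belongs, C2cd3 alone was called. It acts in the assembly of distal appendages, and fell by 0.23 on the log2 scale (SE 0.07, adjusted p = 0.0425, edgeR), with levels of 3.70, 7.21 and 8.11 (lowest, median, highest) in HFD and 4.64, 7.47 and 8.35 in LFD embryos. The groups overlapped, and the call was lost in 7 of 15 alternative fits, with adjusted p up to 0.802.

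Among 26 tested genes of the pericentriolar material and gamma-tubulin, Pcm1, the scaffold of centriolar satellites, rose, with a log2 fold change of 0.24 (SE 0.06, adjusted p = 0.0154, edgeR). Its mean levels were 7.30 ± 0.44 in HFD and 7.11 ± 0.39 in LFD embryos, and without HFD embryos 31 to 70 the log2 fold change was 0.13 (adjusted p = 0.481, edgeR). With ranges of 10 numbers within a diet as a block in limma, the log2 fold change was 0.25 and the call was lost (adjusted p = 0.0680). Among 29 genes of the spindle pole and the acentriolar spindle, Cltc, the clathrin heavy chain, which crosslinks spindle fibres besides its role in vesicles, fell by 0.33 on the log2 scale (SE 0.06, adjusted p = 0.000128, edgeR). Its medians were 7.18 (HFD) and 7.51 (LFD). Kif2a, a kinesin that shortens microtubules at spindle poles, rose, with a log2 fold change of 0.30 (SE 0.07, adjusted p = 0.00350, edgeR), with medians of 6.07 and 5.78. Kif2a was not called without HFD embryos 31 to 70 (adjusted p = 0.153), and none of the 4 genes was called with the mitochondrial share as a covariate. C2cd3 and Cltc had r = 0.54 and 0.46 with Odf2 and -0.49 and -0.44 with the mitochondrial share, as a description over all embryos. Pcm1 and Kif2a had the opposite signs, with r = -0.20 and -0.16 with Odf2 and 0.11 and 0.27 with the share.

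**Figure D5:**
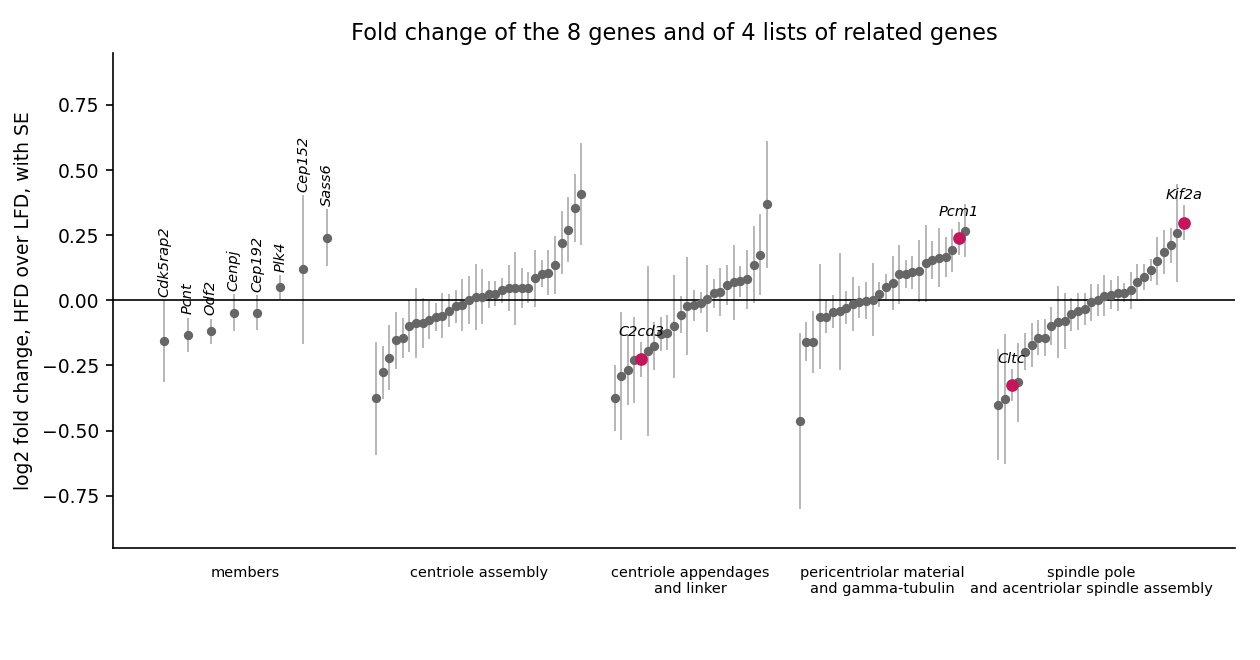
Log2 fold change (HFD over LFD) with its SE for the 8 genes and for the tested genes of 4 lists, ordered within each list; pink points passed an adjusted p of 0.05 in edgeR. The called genes are C2cd3 (-0.23), Pcm1 (0.24), Cltc (-0.33) and Kif2a (0.30), and none of the 8 genes is among them.

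Because Odf2 is also a sperm tail gene, RNAs of the sperm tail and of spermatids were examined beside it. Of 23 such genes 8 passed the filter, 0 were called, and 11 were at 0 in most embryos. An unadjusted p under 0.05 was found for 1 of them, beside 1938 of all 14820 genes tested. Odf1, the partner of Odf2 in the outer dense fibres, had a count in 38 HFD and 36 LFD embryos, with at most 20 counts in 1 embryo. Odf3 had a count in 11 HFD and 3 LFD embryos and Odf4 in 8 and 12. Other genes of the list were widely detected, with a count of Spag16 in 99.1%, of Spata6 in 97.3% and of Tekt2 in 95.5% of all embryos. Their mean CPM were 26.6, 16.7 and 9.11, beside 457 for Odf2. Odf2 had a median of 2525 counts in HFD and 2812 in LFD embryos and was at 0 in none. The summed level of the list, without Odf2, was 2.68 at the lowest, 6.08 at the median and 7.13 at the highest in HFD embryos and 4.67, 6.22 and 7.14 in LFD embryos. Spag16, a protein of the central pair of the sperm axoneme, had the smallest p, with a log2 fold change of -0.37 (SE 0.14, adjusted p = 0.140, edgeR).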

How the data were processed

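Single early 2-cell embryos (122 HFD, 99 LFD, grouped by the sire's diet in the sample titles) were profiled by Smart-seq2. The deposited values are raw counts per gene. Per the file headers, the authors counted reads over Ensembl 102 exons (GRCm38) with featureCounts 2.0.3, each read of a pair by itself and with strand setting 2. A library without strand loses part of its reads under this setting, and genes opposite each other exchange reads. The submitters' processing notes name Trim Galore 0.6.6 and STAR 2.7.10a. Every sample column was used.

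Counts were tested with edgeR 4.0.16 in R 4.3.3 (quasi-likelihood test, TMM, filterByExpr by diet, library sizes over all genes, Benjamini-Hochberg adjustment, threshold 0.05), a script checked on simulated data. SE was derived from the F statistic and intervals are 95%. Levels are log2 of CPM with 1 added (list sums with 0.5). Correlations used 100000 permutations within diets, whose smallest p is 1e-05 before adjustment. DESeq2 1.42.0, limma 3.58.1 and other alternatives are given in the closing section. Transcript lengths came from GENCODE M21. Among the 50 most similar pairs of libraries the lowest chi-square was 13.0 per gene, so none was merged. PCR reads are not independent molecules.

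The members and gene lists were chosen with earlier results of these data known. Named genes are the 8 members, called genes of each pathway list (at most the 5 with the smallest p, or the 1 with the smallest p), the 5 genes most and 3 least like Odf2, and genes with overlapping exons. Marker genes are given as counts, and Odf1, Odf3, Odf4, Spata6 and Tekt2 were named after their values were seen.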

Additional observations from a re-analysis of the deposited data

How the results depend on the processing

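None of the 8 genes passed the threshold in any of 15 alternative fits (12 planned, 3 added after the data were seen). Of the 195 fold changes recomputed for the 8 and 5 list genes, 171 kept direction and side of the threshold, 13 lost a call and 11 turned sign. The lost calls were those of C2cd3 (7), Pcm1 (3), Cltc (1) and Kif2a (2), and the other genes had no call to lose. Size was not counted: Odf2 at -0.02 without HFD embryos 31 to 70 is among those kept. With the mitochondrial share as a covariate, which was added, Odf2 turned to 0.022 and Cenpj to 0.056, and without HFD embryos 31 to 70 Cenpj turned to 0.0097. In limma without a block, with the embryo number, with ranges of 10 numbers and with ranges within a diet (added) as a replicate block, Cep152 turned to -0.083, -0.084, -0.092 and -0.097 and Cdk5rap2 to 0.026, 0.024, 0.0096 and 0.021. The 318 genes called became 7030 with no filter, 546 without 8 embryos with few genes, 175 without HFD embryos 31 to 70, 99 with the mitochondrial share and 86 with the block of ranges within a diet. The 4 list genes called became 8, 5, 2, 0 and 2 in the same order. The cause of these changes was not tested. Fewer embryos entered where some were left out, yet the calls rose in 1 such fit and fell in the other. More genes were tested with no filter, so the count of 7030 is not comparable as a share. Separated neighbours in the order of levels became 3 in place of 5 with the longest coding transcript.

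Numbers are shared by 94 pairs. Samples with the same number had a median correlation of 0.01, against -0.001 for other pairs, and over 0.1 in 20 pairs. Of the HFD embryos 1 correlated best with its own number. Whether embryos with the same number share a date or handling was not tested, since the labels give neither. With that number as a replicate block 343 genes were called, and with ranges of 10 numbers 394, in both cases with 0 of the 7 companions. Leaving out each embryo in turn kept the sign of the log2 ratio of mean CPM of all 8 genes, from -0.17 to -0.15 for Odf2. The shallow levels of Cep152 and Cdk5rap2 limit what can be said of them, and counting each read of a pair by itself leaves 65.8% of counts above 0 even.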
